A study of Rattus norvegicus with 48 samples.

Results

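The miR-29 family was followed through 4 regions of the rat kidney by small RNA sequencing. Its members were taken by name as the mature 3p strands rno-miR-29a-3p, rno-miR-29b-3p and rno-miR-29c-3p (written without the species prefix below), which are 3 of the 188 mature miRNAs in the deposited table, and no other miR-29 arm is listed there. Values were averaged over the sequencing runs of a library and then compared over rats.

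The regions were the proximal tubule, the thick ascending limb (of Henle's loop), the collecting duct and the glomerulus, cut by laser capture from frozen kidney sections 8 µm thick. All of them came from the same 3 untreated male Sprague-Dawley rats, 6 months old, so the regions share their animals and no group carried an allele or an agent. Tubules were recognized by immunofluorescence, the collecting duct by aquaporin-2, the limb by Tamm-Horsfall protein and the proximal tubule by glutathione S-transferase, while a histochemical stain marked the glomeruli, so staining method and region cannot be told apart for the glomerulus. There were 3 libraries of each tubule region, 1 per rat, and 2 of the glomerulus, from rats 1 and 3, each sequenced in 4 runs on flow cells A to D. Another glomerulus library with the label rat 3 was removed by the submitters and is not analysed here. With 2 glomerulus libraries labelled rat 3 and none labelled rat 2, the rat of each glomerulus library is taken as labelled, which bears on the rat block and on each comparison with the glomerulus made within rats.

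miRNAs are short RNAs that pair with messenger RNAs, mainly through their seed, the bases near the 5′ end, and lower the output of those messages. The miR-29 family is known for repressing genes of the extracellular matrix, among them fibrillar and basement membrane collagens, elastin and fibrillin. In fibrosing mouse and rat kidneys transforming growth factor beta has been described as lowering miR-29, and restoring it as reducing collagen, which is why the family is called antifibrotic. The animals here were untreated, and neither fibrosis nor any target was measured.

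The mature sequences, from RefSeq on the GRCr8 build, are printed because the members are told apart by few bases. Capitals mark the seed, bases 2 to 8.
miR-29a-3p: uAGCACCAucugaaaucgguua
miR-29b-3p: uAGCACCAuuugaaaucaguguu
miR-29c-3p: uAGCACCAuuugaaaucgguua
All 3 members share 1 seed. Of 172 miRNAs of the table with a RefSeq sequence, 3 carried this seed, and 3 of 693 mature rat names in RefSeq did, so in both sets the seed belonged to the family alone. Counted from the 5′ end, miR-29a-3p differs from miR-29c-3p by U10C. Over the 22 bases that they share, miR-29b-3p differs from miR-29c-3p by G18A, U21G and A22U and carries 1 more base at its 3′ end. The division of reads between miR-29a-3p and miR-29c-3p therefore rests on 1 base, and how mismatches were treated is not given in the sources used here.

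The members come from 2 loci on GRCr8. Mir29a gives miR-29a-3p at chr4:60617968-60617989 on the minus strand, and Mir29b1 gives miR-29b-3p at chr4:60618342-60618364 on the same strand, with 291 bases between the 2 hairpins. Mir29b2 gives the same miR-29b-3p at chr13:109098882-109098904 on the plus strand, and Mir29c gives miR-29c-3p at chr13:109099412-109099433 on that strand, with 447 bases between their hairpins. In the RefSeq gene table of that build the second pair lies within a long non-coding RNA gene, LOC102550527. The hairpins of the miR-29b genes are shown because they differ outside the mature strand, which stands in capitals and is identical in both.
Mir29b1: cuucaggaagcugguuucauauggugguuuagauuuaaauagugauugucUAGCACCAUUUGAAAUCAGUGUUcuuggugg
Mir29b2: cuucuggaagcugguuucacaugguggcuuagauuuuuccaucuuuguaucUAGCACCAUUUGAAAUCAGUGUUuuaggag
A read of mature miR-29b-3p can come from either gene, and its level below is the sum of both. RefSeq also annotates miR-3556a, miR-3587 and miR-3556b on the strand opposite miR-29a-3p, miR-29b-3p and miR-29c-3p. The reverse complement of each lies within the member it faces. None of the 3 is a column of the table, and whether strand was used in counting is not given in the sources used here.

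The deposited values are read counts scaled by the authors with TMM, the trimmed mean of M-values, which sets libraries on 1 scale without making their sums equal. The sums over 188 miRNAs ran between 77457 in the rat 3 library of glomerulus and 255518 in the rat 2 library of collecting duct. Within a run most small values were multiples of a smallest step, read here as 1 sequencing read, which gave 147996 to 1296995 reads per library. Marker miRNAs of the proximal tubule, of epithelium and of endothelium followed the labels. No list was specific to the thick ascending limb or the collecting duct, so the labels of those 2 regions were not checked against each other. The 2 proximal tubule markers, miR-192-5p and miR-194-5p, summed to 21130 to 26367 in the proximal tubule, against 2181 to 4280 in the thick ascending limb, 1259 to 2340 in the collecting duct and 777 to 1424 in the glomerulus. The 4 measured epithelial markers of 5 listed (miR-200a-3p, miR-200b-3p, miR-141-3p and miR-429) summed to at least 412 in each tubule library, against 36.1 to 128 in the glomerulus. Endothelial markers (miR-126a-3p and miR-126a-5p) reached at most 3170 in any tubule library, against 4299 to 6290 in the glomerulus. None of the 4 red cell and 3 striated muscle miRNAs listed is a column of the table.

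By reads, miR-29a-3p made up nearly all of the family. Over all libraries it took 12059 of 12847 family reads, or 93.9%, against 668 reads (5.20%) for miR-29c-3p and 120 reads (0.934%) for miR-29b-3p. Library by library, miR-29a-3p held 89.4% to 95.6% of the summed family value. Mature lengths of 22 and 23 bases make division by length unnecessary. Whether the library protocol captured the members equally was not tested, so these are shares of reads and not of molecules. By level miR-29a-3p ranked between 31st and 55th of 188 in every library, miR-29c-3p between 97th and 129th, and miR-29b-3p between 132nd and 176th. The family as a whole supplied 0.193% of 6657657 reads.

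miR-29a-3p was highest in the collecting duct, lowest on average in the thick ascending limb, and intermediate in the proximal tubule and glomerulus. In the proximal tubule its TMM-normalized values were 258.9, 274.4 and 380.0 in rats 1, 2 and 3. In the thick ascending limb they were 209.1, 93.8 and 263.4, and in the collecting duct 348.1, 610.7 and 465.7. The glomerulus libraries of rats 1 and 3 had 282.2 and 153.3. All 3 collecting duct libraries stood above every thick ascending limb and glomerulus library, where 29.3% of miRNAs did not overlap between thick ascending limb and collecting duct and 36.7% between collecting duct and glomerulus. The rat 3 library of proximal tubule lay inside the collecting duct range, and the rat 2 library of thick ascending limb was the lowest of 11. In a dissected region a lower value can mean fewer cells that carry the miRNA or less of it per cell, and these cannot be told apart.

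Means were 304 ± 65.9 in the proximal tubule, 189 ± 86.6 in thick ascending limb and 475 ± 132 in collecting duct (SD, n = 3 rats each), and 218 ± 91.2 in the glomerulus (SD, n = 2). Within each of the 3 rats the collecting duct exceeded the proximal tubule, which exceeded the thick ascending limb. That order held in all rats for 5 of 188 miRNAs (2.66%), while 13.8% of miRNAs kept some single order of the tubule regions in all rats. Neither miR-29b-3p nor miR-29c-3p kept 1 order. The glomerulus had no fixed place: in rat 1 it came second of 4 and in rat 3 it came last.

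**Figure D1:**
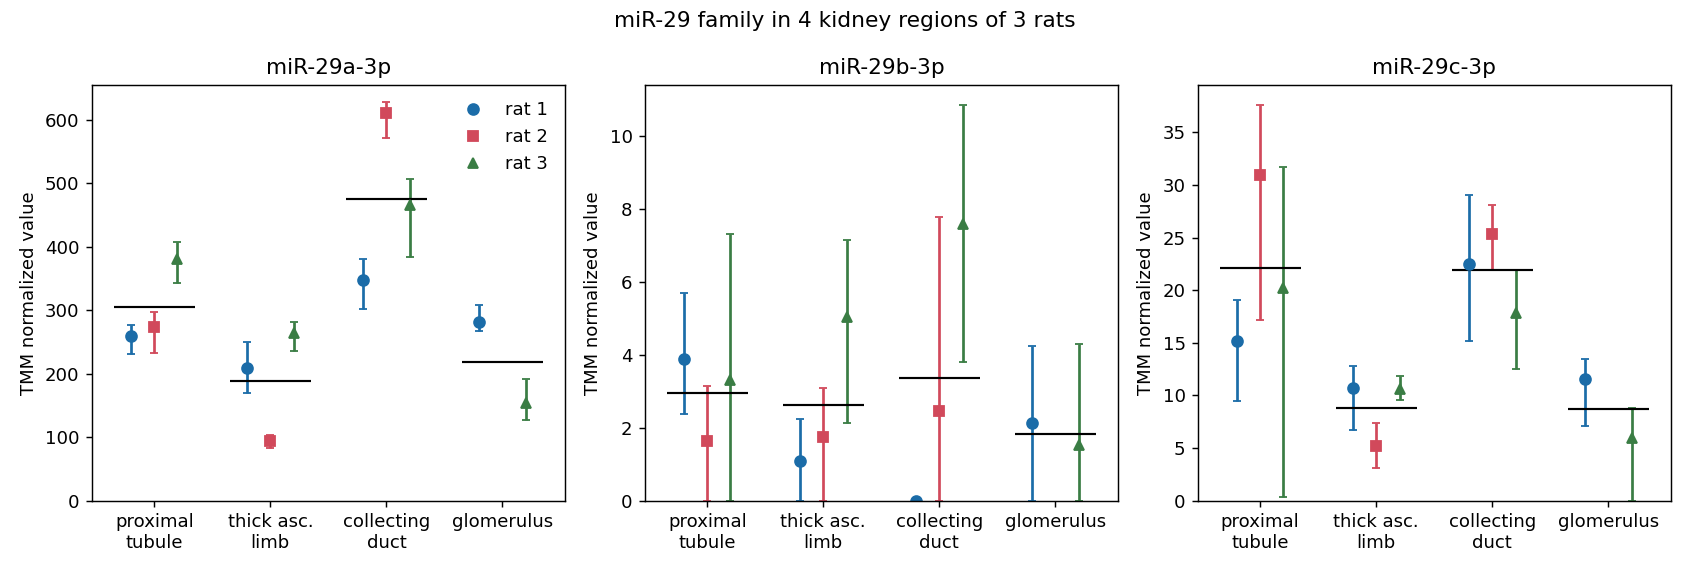
TMM-normalized value of each member (vertical axis, linear, a separate scale per panel) in each region. Each symbol is the mean over 4 runs of 1 library, whiskers span the lowest and highest run, and bars are region means over rats. The 3 collecting duct symbols of miR-29a-3p lie between 348.1 and 610.7, and the whiskers of miR-29b-3p reach 0 in most libraries.

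Across regions miR-29a-3p did not pass the 0.05 threshold (limma F-test with rat as a block, Benjamini-Hochberg adjusted p = 0.0924, unadjusted p = 0.0267), where 46 of 188 miRNAs, 24.5%, did. An exact permutation test of its own F statistic, with region labels exchanged within rats, gave p = 0.0833. The closest contrast was thick ascending limb minus collecting duct, at -1.42 ± 0.51 (log2(value + 1), SE, 95% interval -2.41 to -0.43, adjusted p = 0.108 by limma with Benjamini-Hochberg, unadjusted p = 0.00515). It was lower in the thick ascending limb in 3 of 3 rats, by 0.74 to 2.70 on the log2 scale. In that contrast 4 of 188 miRNAs (2.13%) passed, and the median over all miRNAs was -0.36, in the same direction. How many miRNAs were lower in 3 of 3 rats was not counted. Collecting duct minus glomerulus was 1.26 ± 0.58 (SE, limma adjusted p = 0.138), in a contrast where 14.9% of miRNAs passed. The median of that contrast over all miRNAs was 0.61, below the value of miR-29a-3p. Proximal tubule minus thick ascending limb was 0.79 ± 0.51 (SE, limma adjusted p = 0.381), against 7.98% passing.

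The remaining contrasts of miR-29a-3p were smaller. Proximal tubule minus collecting duct was -0.62 ± 0.51 (SE, limma adjusted p = 0.468), with 10.1% of miRNAs passing. Proximal tubule minus glomerulus was 0.63 ± 0.58 (SE, limma adjusted p = 0.452), with 17.6% passing. Thick ascending limb minus glomerulus was -0.16 ± 0.58 (SE, limma adjusted p = 0.901), with 11.2% passing. Over all miRNAs the median differences of these contrasts with the glomerulus were 0.77 and 0.36, each above that of miR-29a-3p. Contrasts that name the same region share its libraries. miR-29a-3p values overlapped between proximal tubule and collecting duct and between thick ascending limb and glomerulus, where 34.0% and 33.5% of miRNAs did not overlap. In the ordering by mean level (collecting duct, proximal tubule, glomerulus, thick ascending limb) no neighbouring pair of regions differed beyond the test's threshold.

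The miR-29a-3p result moved with 2 sets of libraries. With the glomerulus libraries left out, the F-test over the tubule regions gave a limma adjusted p = 0.00120 and thick ascending limb minus collecting duct an adjusted p = 0.00110 at the same difference of -1.42. The glomerulus libraries spread more than the tubule libraries in log2 values. Across the 65 miRNAs averaging 100 or more, the median SD was 0.284 for proximal tubule, 0.343 for thick ascending limb and 0.344 for collecting duct. For the glomerulus it was 0.811, from 2 libraries that summed to 165055 and 77457. Such an SD also holds differences in scale between whole libraries. The part of this spread in the change of the test was not tested. With rat 2 left out, thick ascending limb minus collecting duct was -0.78 (adjusted p = 0.959), without the rat 2 library of thick ascending limb alone it was -0.91 (adjusted p = 0.848), and without the rat 2 library of collecting duct alone it was -0.96 (adjusted p = 0.814), all by limma. Between rats miR-29a-3p varied by an SD of 0.78 log2 units in the thick ascending limb, the 4th widest of 65 miRNAs, while runs of 1 library differed by a median SD of 0.14.

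The level of miR-29a-3p moved with the sum of its library. Over 11 libraries its log2 value and the log2 summed value had a Pearson r of 0.85 and a Spearman rho of 0.95, given as a description of libraries that share their scaling. As a share of the summed value, miR-29a-3p was 0.171% ± 0.0116 in the proximal tubule, 0.127% ± 0.0399 in thick ascending limb and 0.226% ± 0.0318 in collecting duct (SD, n = 3 each), and 0.184% ± 0.0190 in the glomerulus (SD, n = 2). On this scale the collecting duct again came first and the thick ascending limb last of the tubule regions in each rat. That order was kept by 1.06% of miRNAs, while 14.9% kept some single order of the tubule regions in all rats. The glomerulus stood above the proximal tubule on average. The lowest share was 0.0809%, in the rat 2 library of thick ascending limb, and the highest was 0.249%, in the rat 3 library of collecting duct. Over all 188 miRNAs the median thick ascending limb minus collecting duct difference was -0.36 on the log2 scale, so that of miR-29a-3p went beyond it in the same direction.

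**Figure D2:**
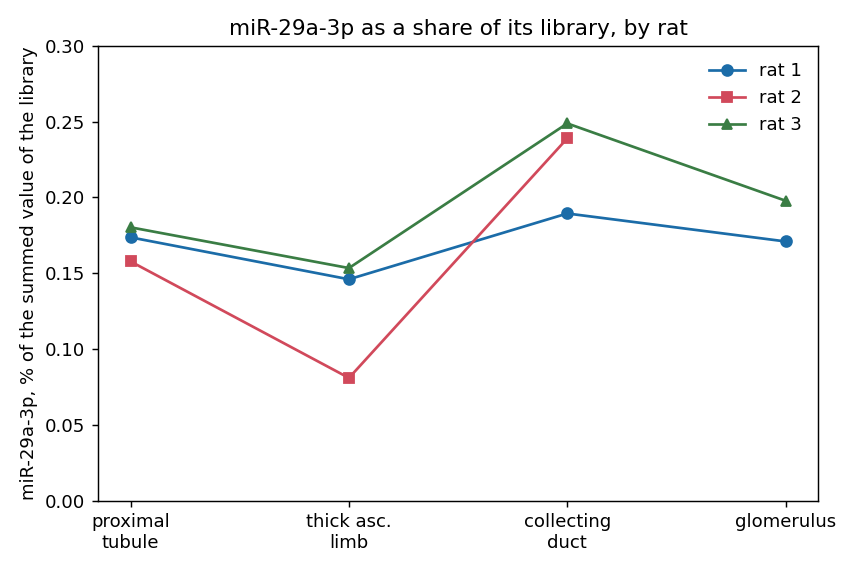
miR-29a-3p as a percentage of the summed value of 188 miRNAs (vertical axis) by region, with 1 line per rat; lines join libraries of the same rat and rat 2 has no glomerulus library. Each line has its lowest tubule point in the thick ascending limb and its highest point in the collecting duct, with rat 2 the lowest of all at 0.0809%.

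Marker lists differed between thick ascending limb and collecting duct as well, not all in the same direction. The 4 epithelial markers, which the tubules themselves carry, summed to 412 to 792 in thick ascending limb and 827 to 1595 in collecting duct. Both endothelial markers summed to 1158 to 1633 in thick ascending limb and 1935 to 3170 in collecting duct, and 2 markers of smooth muscle, pericytes and mesangium to 4781 to 6094 and 6635 to 8080. The proximal tubule markers went the other way on average, with overlap, at 2181 to 4280 in thick ascending limb and 1259 to 2340 in collecting duct. The 4 measured leukocyte markers of 6 overlapped, at 336 to 607 in thick ascending limb and 411 to 476 in collecting duct, as did the 2 measured fibroblast and mesenchyme markers of 3, at 54.7 to 155 and 69.3 to 172. As a percentage of the summed value, the epithelial list overlapped, at 0.356% to 0.467% in thick ascending limb and 0.442% to 0.632% in collecting duct, and so did the endothelial list, at 0.851% to 1.14% and 1.03% to 1.48%. The smooth muscle and fibroblast lists overlapped too, while the proximal tubule list (1.52% to 3.69% in thick ascending limb, 0.685% to 0.997% in collecting duct) and the leukocyte list (0.264% to 0.353% and 0.186% to 0.229%) were higher in thick ascending limb without overlap. On that scale miR-29a-3p did not overlap, at 0.0809% to 0.153% in thick ascending limb and 0.189% to 0.249% in collecting duct. How many of the 188 miRNAs did not overlap as a percentage was not counted. By value, 29.3% of them did not, so separation of that kind was common. None of the epithelial and endothelial markers was at 0 in these 6 libraries. The part of any marker list in the miR-29a-3p result was not tested.

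miR-29c-3p, which differs from miR-29a-3p by 1 base and comes from the other locus, was about as high in the proximal tubule as in the collecting duct and lower in the thick ascending limb and glomerulus. Its values were 15.2, 31.0 and 20.2 in the proximal tubule of rats 1, 2 and 3, against 10.7, 5.16 and 10.6 in the thick ascending limb. They were 22.5, 25.3 and 17.8 in the collecting duct, against 11.5 and 5.91 in the glomerulus of rats 1 and 3. Every proximal tubule and collecting duct library stood above every thick ascending limb and glomerulus library. Separation of that kind was common: 31.4% of miRNAs did not overlap between proximal tubule and thick ascending limb and 42.0% between proximal tubule and glomerulus, beside the 29.3% and 36.7% given above.

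Region means of miR-29c-3p were 22.1 ± 8.04 in the proximal tubule, 8.82 ± 3.17 in thick ascending limb and 21.9 ± 3.78 in collecting duct (SD, n = 3 each), and 8.72 ± 3.96 in the glomerulus (SD, n = 2). No difference passed the threshold. The limma F-test gave an adjusted p = 0.497, and the exact permutation test of its own F statistic p = 0.118. Limma took the spread of miRNAs of like abundance, an SD of 1.095, where the own residual SD of miR-29c-3p was 0.623. Its own F statistic was 3.41, against 3.07 for miR-29a-3p. The limma p-values therefore do not rank miR-29a-3p and miR-29c-3p by differences relative to their own spread. Proximal tubule minus thick ascending limb was 0.99 ± 0.89 on the log2 scale (SE, limma adjusted p = 0.646), higher in 3 of 3 rats. Thick ascending limb minus collecting duct was -1.28 ± 0.89 (SE, limma adjusted p = 0.611), lower in 3 of 3 rats, and its 95% interval ran from -3.03 to 0.47. Proximal tubule minus glomerulus was 1.15 ± 1.03 (SE, limma adjusted p = 0.452), higher in 2 of 2 rats. Collecting duct minus glomerulus was 1.44 ± 1.03 (SE, limma adjusted p = 0.384), also higher in 2 of 2 rats. Over all miRNAs the median differences were 0.77 and 0.61, so a shift in this direction was general. Those of miR-29c-3p were larger than these medians. Medians over all miRNAs were 0.37 for proximal tubule minus thick ascending limb and -0.36 for thick ascending limb minus collecting duct. These went the same way as miR-29c-3p. How many miRNAs were higher in 2 of 2 rats, or moved 1 way in 3 of 3 rats, was not counted.

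The depth behind miR-29c-3p was small, at 13 to 171 reads per library. Runs of 1 library differed by a median SD of 0.40 log2 units, against 0.61 between rats. In the rat 3 library of proximal tubule the flow cell D value was 0.301, or 0.0413 of a read, the single one of 132 member values that was not whole within 0.03 reads. Without that run proximal tubule minus collecting duct became 0.07, against -0.29 with it, and in neither case did it pass.

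miR-29b-3p had few reads in every region, and none of its regional differences passed. Its values were 3.89, 1.65 and 3.32 in the proximal tubule of rats 1, 2 and 3, and 1.09, 1.73 and 5.04 in the thick ascending limb. They were 0, 2.46 and 7.60 in the collecting duct, and 2.12 and 1.52 in the glomerulus of rats 1 and 3. The highest and the lowest of the 11 libraries were both collecting duct, and every region overlapped every other. It was at 0 in 15 of 44 runs and had at most 15 reads in any run, and runs of 1 library differed by a median SD of 0.93 log2 units.

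Counted per 100000 reads of the table, miR-29b-3p had 3.96 in the rat 3 library of collecting duct, with an exact 95% interval of 2.56 to 5.85. The rat 1 library of collecting duct had none in 744044 reads, for which the same exact interval reaches 0.496 per 100000. Such intervals hold for counting error alone, because PCR copies are not separate molecules. Region means were 2.95 ± 1.17 in the proximal tubule, 2.62 ± 2.12 in thick ascending limb and 3.35 ± 3.88 in collecting duct (SD, n = 3 each), and 1.82 ± 0.419 in the glomerulus (SD, n = 2). The limma F-test gave an adjusted p = 0.976, the exact permutation test p = 0.875, and the 6 contrasts lay between 0.11 and 0.61 on the log2 scale with standard errors of 1.11 to 1.28. With intervals as wide as -2.07 to 2.28 for proximal tubule minus thick ascending limb, a several-fold difference was not detectable at this depth.

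**Figure D3:**
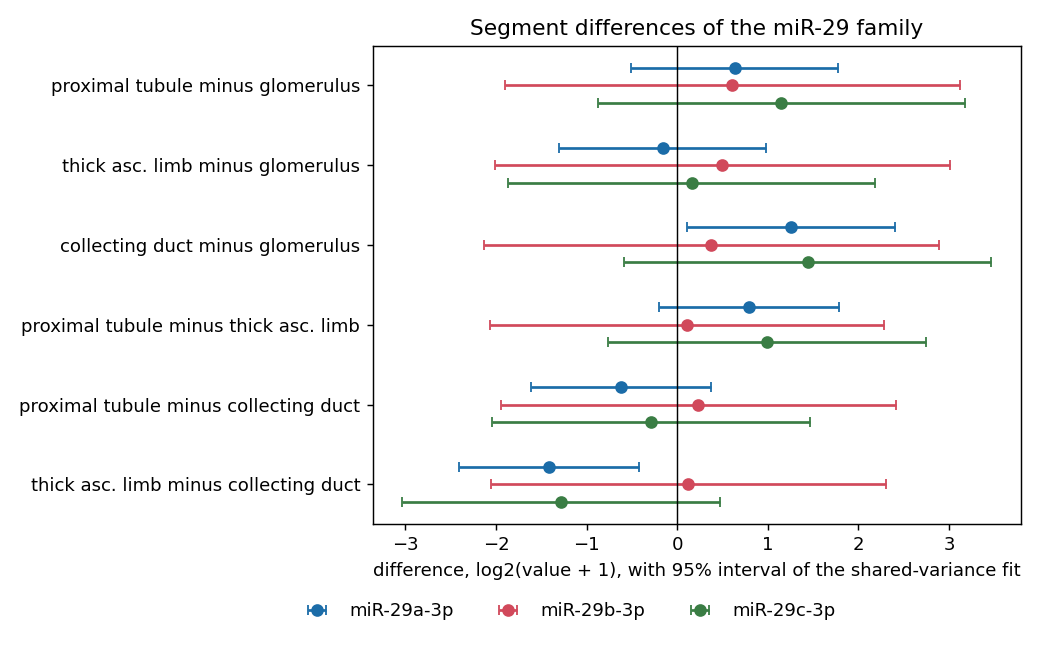
Differences between regions (horizontal axis, log2(value + 1), first region minus second) for the 3 members, with points for limma estimates and bars for 95% intervals. The bars of miR-29a-3p leave 0 out in thick ascending limb minus collecting duct (-2.41 to -0.43) and collecting duct minus glomerulus (0.11 to 2.40), neither of which passed after adjustment; all other bars cross 0.

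Among all 18 contrasts of the members, none passed by limma with Benjamini-Hochberg adjustment over 188 miRNAs, and 2 had an unadjusted p below 0.05, both of miR-29a-3p. The members were also set against each other within libraries, as differences of log2(value + 1). The pseudocount keeps the scaling of a library from cancelling fully, most so for miR-29b-3p. miR-29a-3p exceeded miR-29c-3p by 4.04 ± 0.87 log2 units in the proximal tubule, 4.24 ± 0.26 in thick ascending limb and 4.37 ± 0.39 in collecting duct (SD, n = 3 each), and by 4.71 ± 0.25 in the glomerulus (SD, n = 2). Differences of this ratio among regions did not pass an exact permutation test within rats (p = 0.391, adjusted over 3 ratios 0.412). The proximal tubule mean holds the fractional flow cell D run of rat 3, whose library stood at 4.91. Without that run the library was at 3.83 and the proximal tubule at 3.68 ± 0.46 (SD, n = 3), and the exact permutation test gave p = 0.0486, adjusted 0.146. From reads with 0.5 added, a ratio free of the scaling, the proximal tubule was at 3.69 ± 0.53 (SD, n = 3), with an exact permutation p = 0.0938, adjusted 0.281. Both settings were chosen after seeing the data. The ratios of miR-29b-3p to miR-29a-3p and to miR-29c-3p gave p = 0.392 and p = 0.412 by the same exact test, both 0.412 after adjustment. No ratio passed after adjustment, which does not show that the balance of the members was equal across regions.

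One library stood apart in that balance. In the proximal tubule of rat 2, miR-29c-3p took 10.6% of the reads of miR-29a-3p and miR-29c-3p together, with an exact 95% interval of 9.11% to 12.2%. The other proximal tubule libraries had 5.80% in rat 1 and 5.82% in rat 3, and the 8 libraries of other regions ran between 3.74% and 5.64%. The interval of the rat 2 library overlapped that of no other library. These intervals hold for counting error alone and do not measure the spread between rats. On flow cells A to C this library had 53 or 54 reads of miR-29c-3p beside 426 to 441 of miR-29a-3p. On flow cell D it had 11 beside 149, a lower share. The miR-29a-3p value of the rat 2 library, 274.4, was within the range of the other regions, while its miR-29c-3p value of 31.0 was the highest of all 11.

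**Figure D4:**
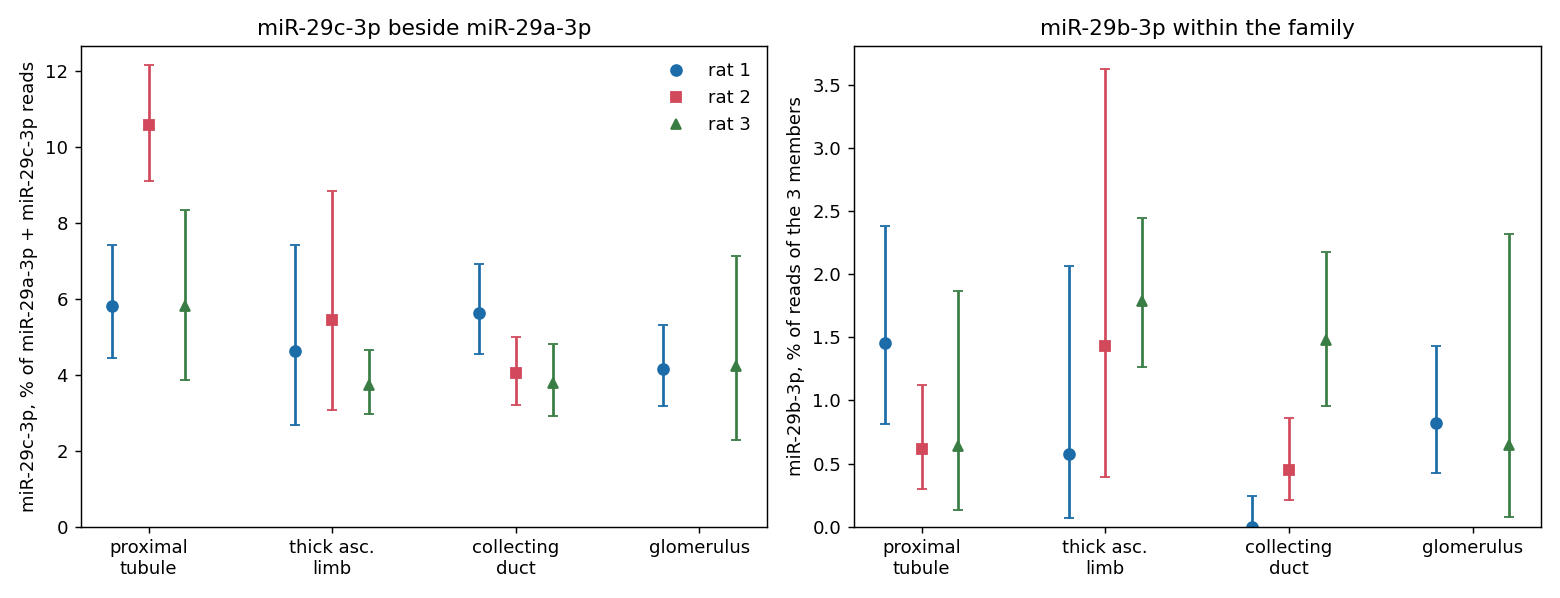
Left, miR-29c-3p as a percentage of miR-29a-3p plus miR-29c-3p reads; right, miR-29b-3p as a percentage of the reads of all 3 members (vertical axes). Each symbol is 1 library, with exact binomial 95% intervals of counting error alone. The proximal tubule of rat 2 stands alone at 10.6% on the left, and on the right the collecting duct of rat 1 lies at 0.

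Across the 11 libraries miR-29a-3p and miR-29c-3p moved together, with a Pearson r of 0.79 and a Spearman rho of 0.75 of log2(value + 1), and r was 0.65 without the 2 libraries farthest from the median of miR-29a-3p. Both also followed the summed value of the library, at r of 0.85 and 0.81. miR-29b-3p was weakly related to either, at r of 0.20 with miR-29a-3p and 0.01 with miR-29c-3p, at the low counts given above. These are descriptions over libraries that share rats and scaling.

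The miRNAs most like each member were sought by Pearson r of log2(value + 1) over 11 libraries among the 64 miRNAs outside the family that averaged 100 or more. For miR-29a-3p they were miR-30c-2-3p (r = 0.89), miR-423-5p (r = 0.89) and miR-30a-3p (r = 0.84), and all 3 were still the closest when the median of each library was subtracted first, at r of 0.80, 0.68 and 0.65. For miR-29c-3p they were miR-99a-5p (r = 0.89), miR-99b-5p (r = 0.85) and let-7b-5p (r = 0.78), of which let-7b-5p dropped to rank 10 after that subtraction. For miR-29b-3p the closest were miR-146b-5p, miR-320-3p and miR-328a-3p, at r of 0.52, 0.46 and 0.37, in sparse counts that carry no finding. Members were left out of this search by its rule. miR-29a-3p and miR-29c-3p had an r of 0.79 with each other, above the 0.78 of let-7b-5p with miR-29c-3p.

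Other miRNAs described in renal fibrosis gave a frame for the family. Of 10 listed as promoting it, 7 were measured and 3 passed the F-test, and of 14 listed as restraining it beside miR-29, 11 were measured and 5 passed, against 24.5% of all miRNAs; 0 of the 3 miR-29 members did. The median unadjusted F-test p was 0.0546 on the first list and 0.115 on the second, against 0.148 over all 188. Both lists were chosen with earlier results of these data known, and some of their miRNAs are also the region markers above. The counts are therefore a description and not a test of the lists. On the first list the 3 were miR-21-5p, miR-199a-3p and miR-192-5p. miR-21-5p, widely described as raised in injured kidney, averaged 1230 ± 70.2 in proximal tubule, 474 ± 129 in thick ascending limb and 554 ± 152 in collecting duct (SD, n = 3 each), and 310 ± 141 in the glomerulus (SD, n = 2, limma adjusted p = 0.00472). miR-192-5p, the highest of that list and also a proximal tubule marker, averaged 22626 ± 2930 in the proximal tubule and 3264 ± 1057 in thick ascending limb, the next highest region (SD, n = 3 each, limma adjusted p = 1.40e-18). miR-199a-3p averaged 89.5 ± 24.4 in the proximal tubule, 91.3 ± 49.0 in thick ascending limb and 104 ± 35.6 in collecting duct (SD, n = 3 each), and 24.5 ± 26.6 in the glomerulus (SD, n = 2, limma adjusted p = 0.00291).

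The 5 of the second list were 4 of the epithelial miR-200 group (miR-200a-3p, miR-200b-3p, miR-141-3p and miR-429) and let-7b-5p. miR-200b-3p averaged 260 ± 48.1 in the proximal tubule, 268 ± 48.7 in thick ascending limb and 479 ± 186 in collecting duct (SD, n = 3 each), and 42.0 ± 38.6 in the glomerulus (SD, n = 2, limma adjusted p = 6.72e-08). let-7b-5p, whose level was among those most like miR-29c-3p, averaged 1308 ± 164 in the proximal tubule, 644 ± 66.5 in thick ascending limb and 1025 ± 240 in collecting duct (SD, n = 3 each), and 553 ± 557 in the glomerulus (SD, n = 2, limma adjusted p = 0.0340). miR-26a-5p, the highest of that list, had an adjusted p = 0.491 by limma. The region means of miR-29a-3p, 189 to 475, were below those of let-7b-5p in each region.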

How the data were processed

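Values are a signal that the authors deposited after TMM normalization of read counts, with low-count miRNAs filtered out, per the name of their file. Libraries were TruSeq small RNA, per the labels' protocols. The submitters' processing notes name Partek 6.0, Bowtie2 2.2.5, Bowtie 1.0.0 and rn6, without role or order. The 44 runs of 11 libraries were used as deposited; 4 runs titled removed were left out. Nothing in the labels says more of replicates than the rat, so n counts rats. log2(value + 1) was averaged over 4 runs and fitted in limma 3.58.1 (R 4.3.3) with region and rat. The fit used a variance trend, all 188 miRNAs and two-sided tests. Residual degrees of freedom were 5, but the prior degrees of freedom were infinite. Each miRNA thus took the variance shared at its abundance, and its own spread had no weight. The limma p-values and intervals therefore follow a normal distribution. Rat is a block because regions of 1 rat come from 1 animal. Deviations correlated at a median of 0.08 within rats (15 pairs) and -0.07 between (30 pairs). With rat as a random effect the fitted correlation within rats was -0.158. Reads were not whole for all miRNAs (88.3% to 99.0% of values up to 30 reads), so no count test was run. Ratio tests were one-sided by construction over 3456 exact permutations (Python 3.11.15, SciPy 1.17.1). Named miRNAs were the members, the 3 most alike to each and list members that passed the F-test or were highest. On simulated data, with changes put into miRNAs drawn at random from all 188, the model missed more of them than it found. That share was not split by abundance, so it does not carry over to a single member. A member that did not pass may still differ between regions. Alternatives covered pseudocount, filters, scaling, variance model, block, flow cells and libraries left out. Members and lists were chosen with earlier results of these data known.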

Additional observations from a re-analysis of the deposited data

How the results depend on the processing

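Here PT, TAL, CD and GL stand for proximal tubule, thick ascending limb, collecting duct and glomerulus. None of the 24 member results had passed the threshold; of their 744 alternative values 14 passed and 62, spread over 11 contrasts, changed sign without passing. The cause was not tested. The miR-29a-3p F-test passed with a median of ratios scaling (limma adjusted p = 0.0429), with library weights (0.0291) and over tubule regions alone (0.00120), and ranged from 9.18e-05 (without GL of rat 1) to 0.73 (without rat 2) with libraries or rats left out; 0.00262 was reached without GL of rat 3. TAL minus CD passed at -0.96, -1.16 and -1.42 under the same settings (adjusted p = 0.0444, 0.0128 and 0.00110) and ranged from -1.75 to -0.78 with libraries or rats left out, at adjusted p = 0.000845 to 0.959. Without GL of rat 1, miR-29a-3p also passed in PT minus GL at 1.30 and CD minus GL at 1.92 (adjusted p = 0.0333 and 0.00107). With the variance trend off, its F-test gave 0.333.

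With libraries or rats left out, miR-29a-3p ranged from -0.044 to 1.35 in PT minus GL, -0.97 to 0.51 in TAL minus GL and 0.59 to 2.07 in CD minus GL. miR-29b-3p ranged from -0.26 to 1.47 in PT minus GL, -0.45 to 1.46 in TAL minus GL, -0.90 to 1.69 in CD minus GL, -0.53 to 0.68 in PT minus TAL, -0.76 to 1.13 in PT minus CD and -0.64 to 0.83 in TAL minus CD. miR-29c-3p ranged from -0.61 to 0.68 in TAL minus GL.

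Other sign changes were as follows. For miR-29a-3p, PT minus GL was -0.029 with a median of ratios and -0.0054 at equal totals, and TAL minus GL was 0.00053 with quantile normalization, 0.014 with library weights and 0.053 on flow cell A. For miR-29b-3p, quantile normalization gave -1.11 in PT minus GL, -0.76 in TAL minus GL, -0.69 in CD minus GL, -0.36 in PT minus TAL, -0.42 in PT minus CD and -0.066 in TAL minus CD. Flow cell B alone gave -0.21 in PT minus GL, -0.13 in TAL minus GL, -0.079 in PT minus TAL, -0.66 in PT minus CD and -0.58 in TAL minus CD. Its PT minus TAL was -0.11 with a median of ratios, -0.015 at equal totals, -0.10 with library weights, -0.16 on flow cell C and -0.067 without the fractional run, its CD minus GL -0.029 with library weights, and a pseudocount of 10 gave -0.0097 in PT minus CD and -0.045 in TAL minus CD. For miR-29c-3p, TAL minus GL was -0.019 with a pseudocount of 10, -0.21 with quantile normalization, -0.0028 with the mean taken before log2, -0.31, -0.36 and -0.22 on flow cells A, B and C, and -0.30 without flow cell D. Its PT minus TAL was -0.48 on flow cell D, and its PT minus CD 0.10, 0.35 and 0.13 on flow cells A, B and C, 0.075 without the fractional run and 0.19 without flow cell D. The last 2 settings, and reads in place of values for the ratios, were chosen after seeing the data.

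Without the replicate block the miR-29a-3p F-test gave 0.0526, and removing the block changed no call of a member. The miRNAs passing the F-test, 46 with all libraries, numbered 85 without GL of rat 1, 70 without GL of rat 3, 70 at equal totals, 27 without rat 2, 28 on flow cell D and 26 among miRNAs averaging 100 or more. The 3 ratios stayed above 0.05 in all 26 alternatives each (exact permutation, adjusted p 0.0781 to 0.917). Where a region keeps 1 library, that library is assumed to vary like the others. miR-29b-3p, with 120 reads in all, limits every statement on it.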
